A study of Mus musculus with 22 samples.

Results

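Striatal medium spiny neurons carry a set of receptor, peptide and signalling genes, and the 9 taken up here were *Drd1*, *Drd2*, *Adora2a*, *Penk*, *Pdyn*, *Adcy5*, *Pde10a*, *Ppp1r1b* and *Rarb*, of 21887 protein-coding genes in the gene table. They were chosen by the peaks of 4 frontal cortex libraries, replicate 1 at 6 h and all 3 replicates at 24 h after lipopolysaccharide (LPS), which had been seen to stand apart from the other 7. Peaks were assigned to a gene where the summit lay in the gene body or within 70 kb of it, on the GRCm38 build. Over the 22 libraries this gave 872 of the 563373 non-overlapping sites of the series, each reaching 250 bp to either side of a summit. Since the genes were chosen on frontal cortex values, those values and the differences from hippocampus that rest on them are given as a description. Apart from the FDR of the authors' deposited tables, no p-value is printed for them at the 9 loci. Where loci or sites are said to be called or to pass a threshold between the tissues, nothing is read from it.

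Open chromatin was measured by OMNI-ATAC-seq, in which a transposase cuts accessible DNA, in frontal cortex and hippocampus of 11 adult male wild-type C57BL/6J mice. Every animal, controls included, had drunk corticosterone (CORT) for 7 days, had been injected on day 8 with diisopropyl fluorophosphate (DFP), which blocks acetylcholinesterase, and had further CORT at intervals over 5 weeks. They then received LPS, an endotoxin that sets off inflammation throughout the body, or saline. Each tissue had 3 LPS libraries at each of 6, 12 and 24 h and 2 saline libraries at 6 h, each from its own animal, and every animal gave both tissues. All saline samples were collected at 6 h, so an effect of LPS at 12 and 24 h cannot be told apart from one of collection time. No group lacked CORT and DFP.

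Medium spiny neurons are the GABAergic projection neurons that make up most of the striatum. Those of the direct pathway express the D1 dopamine receptor and dynorphin, and those of the indirect pathway the D2 dopamine receptor, the adenosine receptor encoded by *Adora2a*, and enkephalin. In both, these receptors act on cyclic AMP, which adenylyl cyclase 5 makes and phosphodiesterase 10A breaks down, and whose kinase turns the phosphoprotein DARPP-32 into an inhibitor of protein phosphatase. The labels name frontal cortex and hippocampus, not striatum. Some of these genes are also used outside the striatum, such as *Pdyn* in dentate granule cells.

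The deposited peak lists hold no genome sequence, so the sequences shown are RefSeq promoters (GRCm38.p6), which 6 of the 9 genes matched. *Adora2a*, *Penk* and *Ppp1r1b* had no entry. Those below belong to the dopamine receptors, to *Rarb*, and to both listed starts of *Pde10a*, because all of these starts are compared across the libraries further on. Each runs 5′ to 3′ on the strand of the gene, from 250 bases before the start to 50 after it. Capitals mark the letters of any motif searched, on either strand: the GC box GGGCGG, the cyclic AMP response element TGACGTCA and the TGACG within it, the TATA box TATAAA, and the 5-spaced retinoic acid response element searched as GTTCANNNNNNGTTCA, with the N positions in lower case.
Drd1 (chr13:54055609-54055908, minus strand): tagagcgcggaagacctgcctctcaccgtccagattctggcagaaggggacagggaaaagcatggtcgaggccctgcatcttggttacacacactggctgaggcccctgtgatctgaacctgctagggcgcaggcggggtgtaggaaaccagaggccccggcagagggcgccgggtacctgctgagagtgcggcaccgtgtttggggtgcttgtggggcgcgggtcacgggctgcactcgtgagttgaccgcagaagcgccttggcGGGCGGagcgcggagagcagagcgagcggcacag
Drd2 (chr9:49340153-49340452, plus strand): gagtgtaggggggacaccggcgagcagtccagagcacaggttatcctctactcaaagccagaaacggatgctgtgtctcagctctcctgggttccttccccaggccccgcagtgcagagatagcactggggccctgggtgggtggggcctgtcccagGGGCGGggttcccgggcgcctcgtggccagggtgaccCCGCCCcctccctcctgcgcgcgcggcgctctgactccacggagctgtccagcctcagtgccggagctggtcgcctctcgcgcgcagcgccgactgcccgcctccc
Rarb (chr14:16575427-16575726, minus strand): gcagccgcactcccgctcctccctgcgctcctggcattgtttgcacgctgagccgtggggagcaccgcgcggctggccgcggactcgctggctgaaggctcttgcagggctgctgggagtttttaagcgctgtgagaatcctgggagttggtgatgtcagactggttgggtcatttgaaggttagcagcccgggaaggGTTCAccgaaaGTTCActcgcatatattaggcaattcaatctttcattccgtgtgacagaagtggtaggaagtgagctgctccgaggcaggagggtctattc
Pde10a, first listed start (chr17:8801495-8801794, plus strand): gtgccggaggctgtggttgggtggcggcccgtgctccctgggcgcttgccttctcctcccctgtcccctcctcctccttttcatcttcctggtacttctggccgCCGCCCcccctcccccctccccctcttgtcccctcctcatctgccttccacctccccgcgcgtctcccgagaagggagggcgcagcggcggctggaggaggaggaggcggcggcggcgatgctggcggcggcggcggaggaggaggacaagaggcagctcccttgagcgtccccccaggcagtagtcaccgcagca
Pde10a, second listed start (chr17:8849735-8850034, plus strand): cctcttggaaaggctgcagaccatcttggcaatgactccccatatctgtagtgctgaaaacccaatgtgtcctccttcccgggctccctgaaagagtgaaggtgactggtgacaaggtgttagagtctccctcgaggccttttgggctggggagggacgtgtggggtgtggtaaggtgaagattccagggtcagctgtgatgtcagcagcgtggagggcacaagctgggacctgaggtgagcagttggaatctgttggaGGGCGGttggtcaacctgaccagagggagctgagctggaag

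The *Rarb* promoter holds the spaced repeat on the strand of the gene, beginning 52 bases before the start, and 14 of 21263 promoters of protein-coding genes (0.0658%) hold it. *Rarb* encodes retinoic acid receptor beta, and its response element is a textbook binding site of retinoic acid receptors. The GC box was in the printed *Drd1*, *Drd2* and *Pde10a* promoters and in the *Adcy5* promoter, against 46.2% of all promoters. The TATA box (12.6% of all promoters), the TGACG letters (23.6%) and the full cyclic AMP response element (2.23%) were in none of the 9 listed promoters of these genes. A match describes the letters only, and so does the lack of one.

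Each of the 9 genes had a peak at a listed start or an end of its body in every library of both tissues. A peak lay within 1 kb of the start in 11 of 11 frontal cortex and 11 of 11 hippocampus libraries for *Drd1*, *Drd2*, *Rarb*, *Adcy5* and the first listed starts of *Pdyn* and *Pde10a*. For *Adora2a*, *Penk* and *Ppp1r1b*, whose strand the gene table does not give, the same held for 1 or both ends of the gene body. The second listed start of *Pdyn* had a peak in 0 of 11 frontal cortex and 2 of 11 hippocampus libraries. At *Drd1*, the D1 receptor gene, the fold of the peak over background, as deposited by the authors, was 5.65 to 10.28 in frontal cortex (median 7.64) and 6.08 to 10.69 in hippocampus (median 8.29). The tissues overlapped at *Drd1*, and so they did at *Drd2*, the D2 receptor gene, with 4.38 to 7.67 in frontal cortex and 2.99 to 6.57 in hippocampus. A peak fold is the authors' own value for that library, so these ranges describe the lists and were not tested.

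The second listed start of *Pde10a*, 48.2 kb downstream of the first, was the one start with peaks in both tissues whose folds did not overlap. Its peak had a fold of 2.24 to 3.64 in the 10 frontal cortex libraries that had one and 4.82 to 6.74 in all 11 hippocampus libraries. It ranked above a median of 42.55% of the peaks of its library in frontal cortex and 86.6% in hippocampus. At the first start of *Pde10a* the folds overlapped, with 3.49 to 5.77 in frontal cortex and 4.17 to 5.35 in hippocampus. The plot of folds at gene starts shows the same for *Rarb* (6.42 to 8.10 in frontal cortex, 5.83 to 9.85 in hippocampus) and *Pdyn* (3.03 to 6.08 in frontal cortex, 3.85 to 7.29 in hippocampus).

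**Figure D1:**
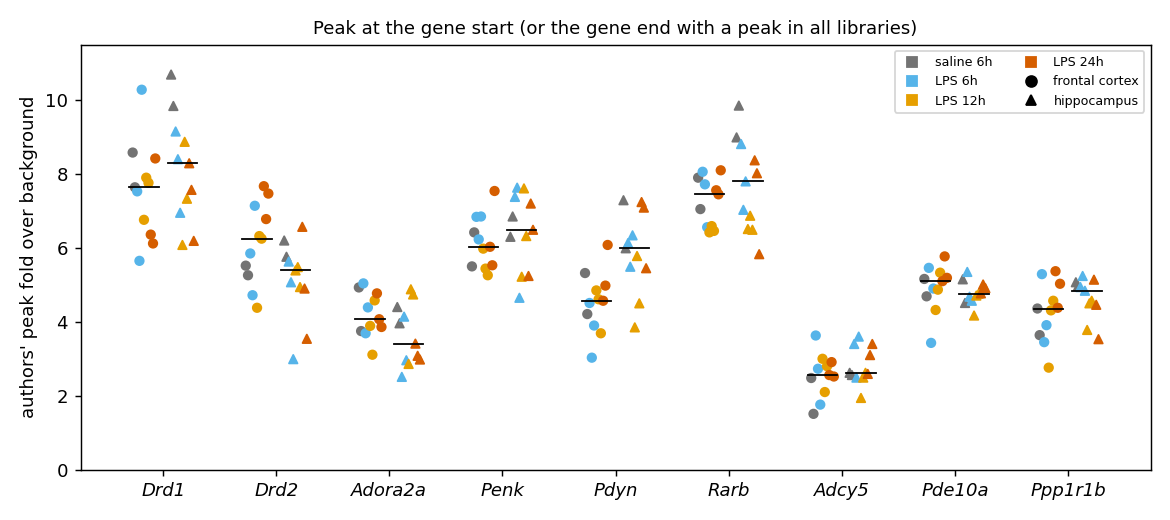
Fold over background of the peak at the start of each gene, per library (vertical axis, the authors' value). The nearest window with a peak in all 22 libraries is shown, which for Adora2a, Penk and Ppp1r1b lies at an end of the gene body. Circles are frontal cortex, triangles hippocampus, colours the groups and lines the tissue medians. Frontal cortex and hippocampus overlap at all 9 genes.

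Away from the starts, the libraries differed at single sites. Of the 529 sites at the 9 loci with a peak in 2 or more frontal cortex libraries, 27 had a peak in 3 or 4 of the 4 libraries on which the genes were chosen and in 0 or 1 of the other 7. That is 5.10% of the sites, against 3.72% of all 328113 frontal cortex sites (12208), so the share is given beside its background and nothing is read from it. The opposite form was a peak in 0 or 1 of the 4 and in 6 or 7 of the other 7. It was seen at 2 of the 529 sites, all at *Ppp1r1b*, and at 799 of all 328113 sites. Nothing is read from these counts either. None of the 27 lay within 1 kb of a listed start of its gene or, for the 3 genes without a strand, of an end of its body, and the median distance to that point was 60.7 kb. In the bodies of the 9 genes lay 13 of the 27. The listed starts of *Rarb* and *Pde10a* lie far inside their gene bodies, so distances at these 2 genes are to an inner start. One *Rarb* site was 514.3 kb from that start but 7.4 kb outside the gene body. *Rarb* had 8 of its 89 frontal cortex sites (8.99%), *Adcy5* 7 of 75 (9.33%), *Pde10a* 3 of 175 (1.71%), *Drd1* 2 of 33 (6.06%), *Drd2* 2 of 30 (6.67%), *Adora2a* 2 of 23 (8.70%), *Penk* 2 of 13 (15.38%), *Ppp1r1b* 1 of 59 (1.69%) and *Pdyn* 0 of 32.

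At the 70 kb limit, the outermost of these sites lay 68.8 kb from *Adcy5*, in the neighbouring gene *Hacd2*, with a peak in frontal cortex LPS replicate 1 at 6 h and replicates 1 and 3 at 24 h. The next one outside lay 71.3 kb from *Adora2a*, and 12 such sites lay between 70 and 140 kb of a member gene. At *Ppp1r1b* 8 other protein-coding genes lay in the window, against 1 to 3 at the other loci. The 8 include *Neurod2*, a gene of the cortical glutamatergic list used further on. Distance alone does not say which gene a site serves.

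*Drd1* had a pair of such sites. One lay between genes 24.0 kb from the start of *Drd1* (chr13:54030516-54031016). In frontal cortex it had no peak in either saline library, folds of 6.43 in replicate 1 and 2.2 in replicate 4 at 6 h after LPS, no peak at 12 h, and 5.56, 6.79 and 3.89 in replicates 1, 3 and 4 at 24 h. It had no peak in any of the 11 hippocampus libraries. The authors' deposited table for frontal cortex at 24 h lists a region here as higher than in saline with an FDR of 1.82e-09. The other *Drd1* site, 37.9 kb away in *Sfxn1*, also had a peak in saline replicate 2 (fold 3.0) and in 5 hippocampus libraries.

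At the receptor genes of the indirect pathway, hippocampus differed from site to site. A site in the body of *Drd2*, 49.3 kb from its start (chr9:49389486-49389986), had folds of 4.75 in replicate 1 at 6 h and 5.22, 3.93 and 2.96 in replicates 1, 3 and 4 at 24 h. No other library of either tissue had a peak there. The authors' deposited table for 24 h lists another *Drd2* region as higher, 46 kb from the start, with an FDR of 0.000877. That second region had a peak in 1 of 2 saline libraries of frontal cortex, 2 of 3 at 6 h after LPS, 1 of 3 at 12 h and 3 of 3 at 24 h, and in 11 of 11 hippocampus libraries. The other *Drd2* site of the 27, 1.3 kb beyond the far end of the gene, had folds of 4.57 in replicate 1 at 6 h and 2.72 and 3.57 in replicates 1 and 3 at 24 h, and no peak elsewhere.

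*Adora2a*, the adenosine receptor gene, had its site 6.3 kb outside the gene body (chr10:75340831-75341331). The folds were 4.2 in replicate 1 at 6 h and 4.95, 4.28 and 2.34 in replicates 1, 3 and 4 at 24 h, with no peak in the other 7 frontal cortex libraries. In hippocampus 7 of 11 libraries had a peak there, with folds of 2.19 to 2.92. The authors' deposited table for frontal cortex at 24 h lists it as higher with an FDR of 0.000405. The *Adora2a* site thus had peaks in hippocampus too. So did the other *Adora2a* site, in the gene body, with folds of 2.92 and 2.74 in hippocampus LPS replicates 1 and 3 at 12 h.

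Among the peptide genes, *Penk*, which encodes the enkephalin precursor, had the site with the highest folds of the 27. It lay 60.7 kb from the gene (chr4:4199233-4199733). In frontal cortex the folds were 6.76 in replicate 1 at 6 h and 8.95, 8.39 and 3.89 in replicates 1, 3 and 4 at 24 h, and no other library had a peak. One hippocampus library, saline replicate 2, had a peak with a fold of 2.08. The authors' deposited tables list the region as higher at 24 h (FDR 5.34e-14) and at 6 h (FDR 0.00128), and 1 of the 3 libraries at 6 h had a peak there. The second *Penk* site, 57.2 kb away, had a peak in 4 frontal cortex libraries (folds 2.12 to 3.37) and in 7 hippocampus libraries (2.21 to 4.31), so it did not separate the tissues. *Pdyn*, the prodynorphin gene, had no site of this kind. Its region in the authors' deposited table for 24 h, higher with an FDR of 0.0103, lay 13.2 kb away at a site with a peak in all 22 libraries. The folds there were 8.74, 9.32 and 8.56 at 24 h, against 7.35 and 5.26 in saline.

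Of the genes of cyclic AMP signalling, the share of such sites was 9.33% at *Adcy5*, 1.71% at *Pde10a* and 1.69% at *Ppp1r1b*. The share over the series was 3.72%. The choosing libraries define these shares, and nothing is read from them. *Adcy5*, which encodes adenylyl cyclase 5, had a site 8.5 kb from its start (chr16:35146127-35146627) with folds of 5.67 in replicate 1 at 6 h and 7.35, 5.53 and 2.65 in replicates 1, 3 and 4 at 24 h. No other library of either tissue had a peak at that *Adcy5* site. The authors' deposited table for 24 h lists it as higher with an FDR of 2.86e-07. Of the 7 *Adcy5* sites 6 had no peak in hippocampus, and the seventh had one in 11 of 11 hippocampus libraries. Next in fold was the *Adcy5* site 56.1 kb from the start, in the neighbouring *Hacd2*, with 4.66 in replicate 1 at 6 h, 1.98 in replicate 1 at 12 h, and 6.61, 4.31 and 2.50 in replicates 1, 3 and 4 at 24 h.

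*Pde10a*, which encodes phosphodiesterase 10A, had 9 regions higher at 24 h in the authors' deposited table, at a locus with 175 of the 529 sites. The one with the lowest FDR that had no hippocampus peak (FDR 3.98e-10 in the authors' deposited table) lay 58.8 kb from the first start (chr17:8742698-8743198). Its folds were 3.16 in saline replicate 2, 6.84 in replicate 1 at 6 h, 2.05 in replicate 3 at 12 h, and 8.10, 5.45 and 3.04 in replicates 1, 3 and 4 at 24 h. It was therefore not confined to the 4 libraries, as 2 others also had a peak. Of the 3 *Pde10a* sites that did meet the criterion, one 30.0 kb beyond the gene (chr17:9016357-9016857) had no peak in hippocampus and folds of 5.48 in replicate 1 at 6 h and 5.43, 5.18 and 3.11 in replicates 1, 3 and 4 at 24 h. *Ppp1r1b*, which encodes DARPP-32, had 1 site, 62.6 kb away, also with a peak in 9 of 11 hippocampus libraries, and no region in any of the 6 tables.

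The 8 sites of *Rarb*, whose product is needed for the development of striatal neurons in mice, had folds up to 5.68, and 6 of them had no peak in hippocampus. A site 192.6 kb from its start (chr14:16767802-16768302) had folds of 3.29 in replicate 1 at 6 h and 3.68, 3.39 and 2.49 in replicates 1, 3 and 4 at 24 h, and no peak elsewhere. The highest fold among the *Rarb* sites was 5.68, in saline replicate 2, at a site where replicate 1 at 6 h (4.02) and replicates 1 and 3 at 24 h (4.47 and 2.68) also had a peak. The 4 *Rarb* regions that the authors' deposited table for 24 h lists as higher were other sites, each with a peak in 9 to 11 frontal cortex libraries. *Rarb* thus had no site of the 27 in that table.

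**Figure D2:**
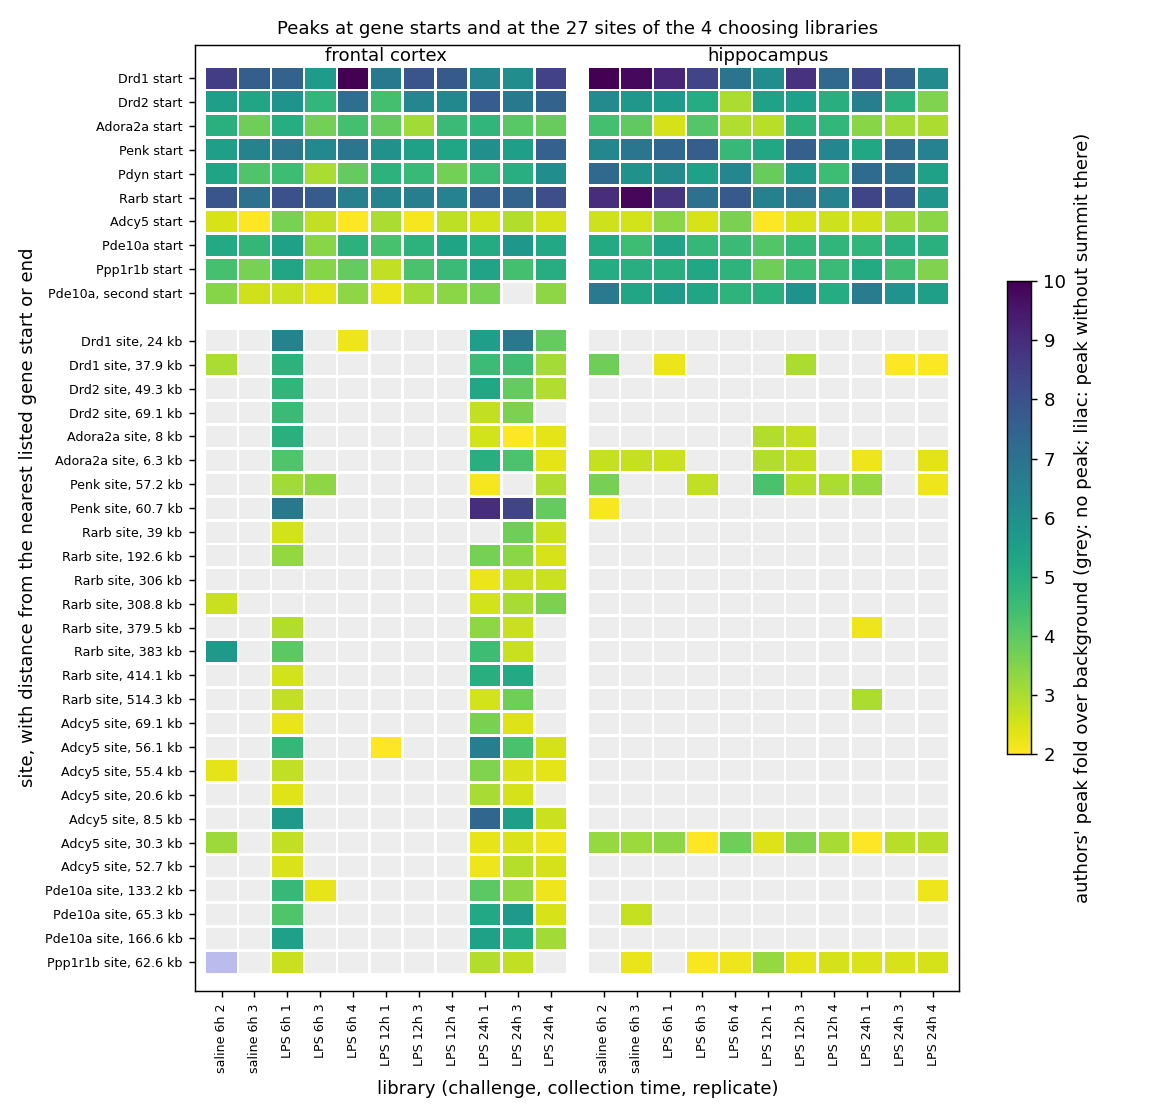
Peaks at gene starts (upper block) and at the 27 sites (lower block), per library (horizontal axis, with challenge, collection time and replicate). Colour is the authors' fold over background, grey is no peak, and lilac is a peak that overlaps the window with its summit outside it. The lower block is filled mainly in frontal cortex LPS replicate 1 at 6 h and in the 3 libraries at 24 h, as the choice of sites fixes, while the starts are filled throughout.

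Within the 4 libraries the sites were not of equal strength. Their median fold was 4.02 in replicate 1 at 6 h, and 3.64, 3.48 and 2.65 in replicates 1, 3 and 4 at 24 h. The median site ranked above 44.8% of the peaks of its library in replicate 1 at 6 h, and above 49.7, 41.6 and 16.1% in replicates 1, 3 and 4 at 24 h. They were thus peaks of middle or low rank, and replicate 4 at 24 h held the weakest. Of the 27 sites, 25 had a peak in replicate 1 at 6 h and 26, 26 and 19 in replicates 1, 3 and 4 at 24 h. Among the other frontal cortex libraries the highest number was 6, in saline replicate 2, and the rest had 0 to 2.

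Libraries with more peaks overall have more chances of a peak at any site, and the totals moved with the pattern in part. The 24 h libraries held 319026, 300099 and 322488 summits, replicate 1 at 6 h held 283785, saline replicate 2 held 316429, and the other 6 frontal cortex libraries 243503 to 284258. The part of these totals in the pattern was not tested. In bulk tissue, more cells that carry an open site and a more open site per cell cannot be told apart.

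Hippocampus libraries did not choose the genes, and they seldom had a peak at the 27 sites. The number with a peak was 2 to 6 of 27 in each of the 11 hippocampus libraries, which held 263639 to 352437 summits. Of the 27 sites 16 (59.3%) had no peak in any hippocampus library, against 30.8% of the 12208 such sites of the series. *Rarb* and *Adcy5* held 6 each of the 16, *Drd2* 2, and *Drd1* and *Pde10a* 1 each. *Adora2a*, *Penk* and *Ppp1r1b* held 0. The share thus rests mainly on 2 loci, it was not tested, and nothing is read from it for the 9 genes as a set. The plot of shares per library shows the 9 loci below the series in each hippocampus library, where 35.5 to 49.1% of all such sites had a peak. A wider set, the 103 sites at the 9 loci with a peak in 2 or more frontal cortex libraries and in no hippocampus library, is given beside it. Replicate 1 at 6 h had a peak at 60.2% of them, against 47.5% of the 56597 such sites of the series, and replicates 1, 3 and 4 at 24 h at 59.2, 59.2 and 57.3%, against 55.1, 53.1 and 64.4%. The other 7 frontal cortex libraries had a peak at 25.2 to 48.5% of the 103 sites and at 33.1 to 55.9% of all. The 103 sites include the 16 above, whose peaks in the 4 libraries are fixed by their definition. The 4 libraries also chose the genes, so nothing is read from these shares.

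**Figure D3:**
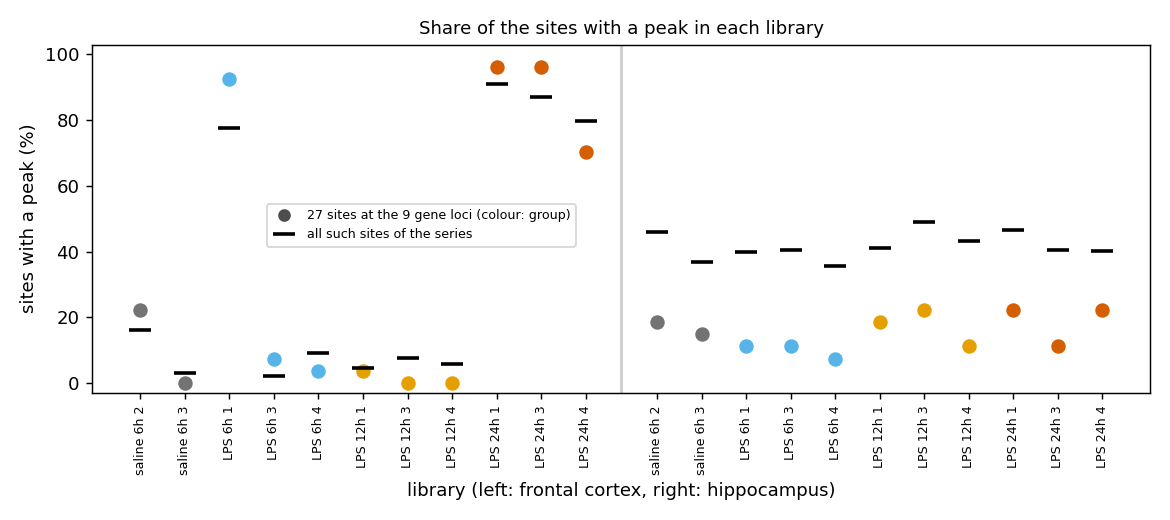
Share of sites with a peak (vertical axis, percent) in each library, frontal cortex left and hippocampus right. Points are the 27 sites at the 9 loci, coloured by group, and bars all 12208 such sites of the series. Hippocampus libraries had a peak at 2 to 6 of the 27, below the share over the series in each.

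Other lists give a scale for these shares, and all were written with earlier results of these data known. A list of 30 further genes of striatal projection neurons had 78 such sites of 1214 (6.43%), and 25 of the 30 genes had at least 1. GABAergic lineage genes had 5.31%, cortical interneuron genes 4.46% and cortical glutamatergic genes 1.72%. The highest share was that of the hippocampal list, with 21 of 305 (6.89%), of which 1 had no hippocampus peak, against 35 of 78 in the further striatal list. Olfactory bulb (3.73%), endothelial (2.90%), astrocyte (2.69%), cholinergic neuron (2.67%), choroid and ependymal (2.31%), oligodendrocyte (1.83%), microglia (1.65%) and leukocyte (0.97%) lists were at or below 3.73%. Every gene of every list had summits in all groups.

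Summed over its 30 genes, the further striatal list had 351.4 and 358.1 summits per 100000 in the saline libraries of frontal cortex, and 350.7 to 379.2 at 6 h, 349.3 to 371.3 at 12 h and 359.7 to 395.6 at 24 h after LPS. The 9 genes summed to 153.9 and 158.9 in saline, and to 161.8 to 172.7 at 6 h, 158.5 to 161.1 at 12 h and 158.5 to 168.0 at 24 h after LPS. The lowest sum at 24 h lay near the highest in saline for both, 158.5 and 158.9 for the 9 genes and 359.7 and 358.1 for the further list. Since the 24 h libraries chose the genes and collection time differs, nothing is read from these sums.

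In frontal cortex, the authors' deposited table of the comparison with saline at 24 h held 23 regions, all higher, at 8 of the 9 loci, with *Ppp1r1b* the exception. Over the series that authors' deposited table holds 4986 higher and 554 lower regions, so most regions anywhere are higher. Of the 529 sites, 23 (4.35%) lay at a higher region of the authors' deposited table for 24 h, against 1.49% of all frontal cortex sites. The GABAergic lineage list had 7.35%, the further striatal list 3.87% and the hippocampal list 3.28%. Since the 24 h libraries chose the genes, nothing is read from that difference. The authors' deposited table at 6 h held 2 higher regions, at *Penk* and *Pde10a*, which is 0.38% of the sites against 0.0491% of all, and replicate 1, one of the choosing libraries, was 1 of its 3 LPS libraries. That at 12 h held none. The 3 comparisons share their saline libraries.

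**Figure D4:**
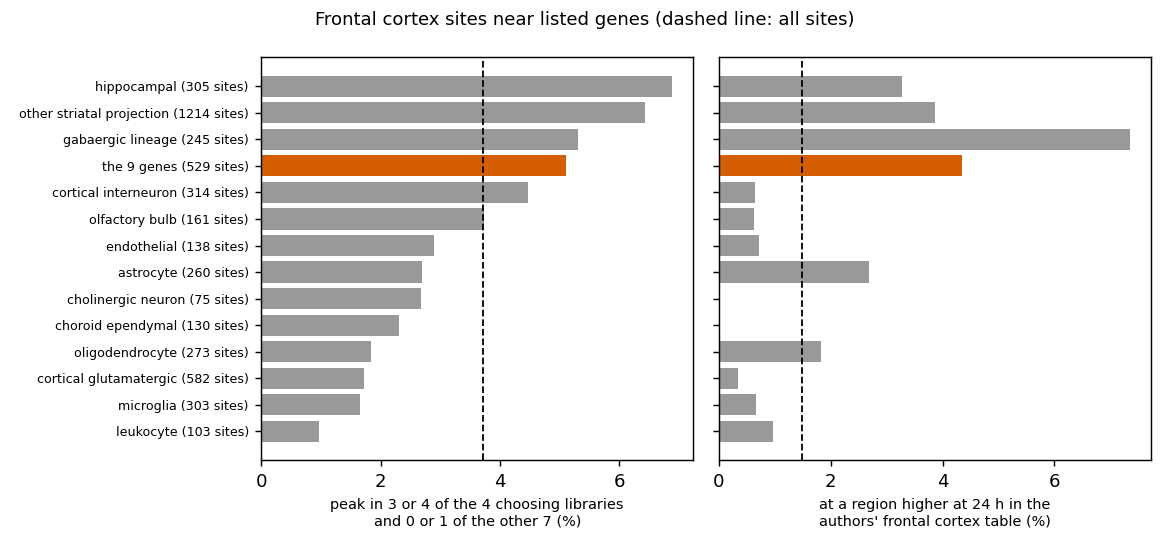
Percent of the frontal cortex sites near the genes of each list that had a peak in 3 or 4 of the 4 choosing libraries and 0 or 1 of the other 7 (left), and that lay at a region that the authors' deposited table lists as higher at 24 h (right). Dashed lines are the shares over all sites, 3.72 and 1.49%. The 9 genes (orange, 529 sites) lie at 5.10 and 4.35%, while the hippocampal list is highest on the left at 6.89% and the GABAergic lineage list on the right at 7.35%.

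In hippocampus all the authors' regions at these loci belonged to the 12 h comparison. *Rarb* had 3 regions higher after LPS at 12 h in the authors' deposited table (FDR 0.00741, 0.0169 and 0.0276), all in the gene body. *Pde10a* had 4 lower in the authors' deposited table (FDR 0.0158 to 0.0483), also in the gene body. The higher regions covered 3 of 519 hippocampus sites at the 9 loci (0.58%, against 0.328% of all 354202) and the lower ones 4 (0.77%, against 0.527%), which is near the background. At the *Rarb* region with the lowest FDR, 3 of 3 libraries at 12 h had a peak, against 1 of 2 in saline, and at the *Pde10a* region with the lowest FDR 0 of 3 at 12 h and 2 of 2 in saline. The authors' deposited tables for hippocampus at 6 and 24 h held no region at the 9 loci.

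Counted over whole loci, hippocampus gave no member that passed the test after LPS. In limma's moderated test on log2(summits per 100000 + 0.5), 0 of 9 genes passed an adjusted p of 0.05 at 6, 12 or 24 h, and 0.0% of the 19504 genes tested did. At an unadjusted p under 0.05, 924, 1325 and 1389 of all genes passed at 6, 12 and 24 h, and 0 of the 9. The differences from saline ran from -0.25 (*Adora2a*) to 0.14 (*Penk*) at 6 h, from -0.07 (*Ppp1r1b*) to 0.26 (*Penk*) at 12 h and from -0.12 (*Ppp1r1b*) to 0.20 (*Penk*) at 24 h (log2). The standard error was 0.16 for *Penk* and 0.13 for *Adora2a*, with 3 animals against 2. A miss of the threshold does not show that these loci did not differ.

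Between the tissues, summits around whole loci differed modestly. *Adcy5* had 25.07 ± 2.01 summits per 100000 in frontal cortex and 21.97 ± 1.70 in hippocampus (SD, n = 11 each), a difference of 0.19 ± 0.04 log2 (SE). *Rarb* had 27.9 ± 1.57 in frontal cortex and 25.3 ± 1.40 in hippocampus (SD, n = 11 each; 0.14 ± 0.04 log2). *Ppp1r1b* had 20.1 ± 1.55 in frontal cortex and 18.4 ± 1.44 in hippocampus (SD, n = 11 each; 0.12 ± 0.04 log2). These 3 loci had the higher mean in frontal cortex, with tissue ranges that overlap, for *Adcy5* 21.2 to 27.7 in frontal cortex and 20.0 to 25.9 in hippocampus.

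In limma's fit over 19500 genes these 3 were past an adjusted p of 0.05 towards frontal cortex, against 32.1% of all genes, and none of the 9 towards hippocampus, against 19.1%. The fit holds the 4 frontal cortex libraries that chose the genes, and nothing is read from the counts. Of all calls 62.6% were towards frontal cortex, but 26.6% without scaling to the library total, where none of the 9 was past the threshold; the median over all genes was then -0.05 in place of 0.05 log2. Without the 4 animals whose frontal cortex libraries chose the genes, the difference was 0.14 log2 at *Adcy5*, which stayed past the threshold, 0.09 at *Rarb* and 0.13 at *Ppp1r1b*, which did not, and -0.25 at *Drd2*, which was then past it. The other 7 frontal cortex libraries were the side from which the 4 had been seen to stand apart. That fit is therefore not free of the choice either, and nothing is read from it. In the plot of summits per locus, *Drd2* ran from 4.86 to 9.51 per 100000 in frontal cortex, with its highest value in replicate 1 at 6 h, and from 6.32 to 8.25 in hippocampus. *Penk* had 3.68 ± 0.75 in frontal cortex and 3.84 ± 0.46 in hippocampus (SD, n = 11 each), with its highest value, 5.33, in frontal cortex replicate 1 at 24 h.

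**Figure D5:**
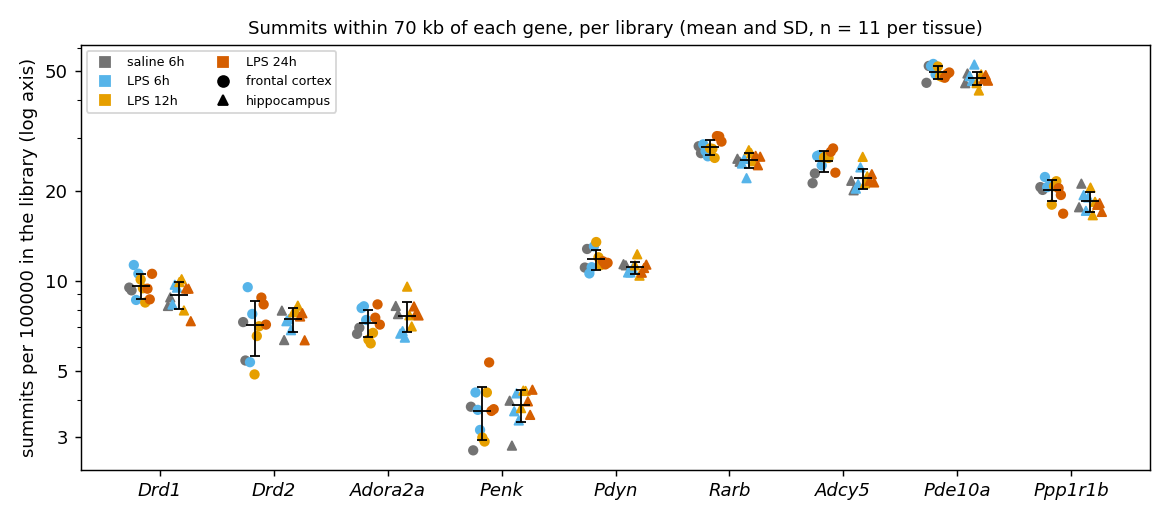
Summits in each gene body and 70 kb around it, per 100000 summits of the library (log axis), with mean and SD (n = 11 per tissue). Circles are frontal cortex, triangles hippocampus, and colours the groups. The tissues overlap at all 9 loci.

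Some single sites were open in all libraries of one tissue and none of the other, in both directions. By Fisher's exact test over all 327333 sites with a peak in 2 to 20 libraries, 13.5% of the tested sites at the 9 loci were more often open in frontal cortex (68 sites, against 12.2% of all) and 14.3% less often (72 sites, against 18.3%). The test counts the libraries that chose the genes, and nothing is read from these shares. A peak in all 11 frontal cortex libraries and no hippocampus library was seen at 11 sites, of which *Rarb* held 6 and *Drd1*, *Drd2*, *Penk*, *Adcy5* and *Pde10a* 1 each (2.34% of all sites tested have that form). The reverse was seen at 15 sites, of which *Rarb* held 4, *Drd2* 3, *Penk* and *Pde10a* 2 each, and *Adora2a*, *Pdyn*, *Adcy5* and *Ppp1r1b* 1 each (4.22% of all).

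Examples of these sites were picked after their values were seen. In the body of *Drd2*, one site (chr9:49379817-49380317) had a peak in 11 of 11 frontal cortex and 0 of 11 hippocampus libraries, and another (chr9:49349261-49349761) in 0 of 11 frontal cortex and 11 of 11 hippocampus libraries. With the animal as the replicate block, in an exact sign test over 11 animals, 43 and 44 sites were called in place of 68 and 72. These were 8.55 and 8.75% of the sites tested at the 9 loci, against 8.14 and 12.8% of all. Without the 4 animals it was 27 (6.73%, against 6.82% of all) and 37 (9.23%, against 13.1%). The frontal cortex libraries left were the other side of the choice of genes, so nothing is read from these shares either.

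Site shares of the tissue marker lists went towards the labelled tissues, though not every locus did. Of the sites near cortical glutamatergic genes 21.4% were called towards frontal cortex, against 12.2% of all, and of those near hippocampal genes 32.8% towards hippocampus, against 18.3%. *Zbtb20*, a hippocampal gene, had a difference of -0.90 log2 in summits per locus (frontal cortex minus hippocampus). Of 12 cortical glutamatergic loci 5 were higher in frontal cortex and 1 lower (*Tbr1*, -0.22 log2). Of 8 hippocampal loci 6 were lower in frontal cortex and 1 higher (*Wfs1*, 0.13 log2). Over all genes tested 32.1% were higher and 19.1% lower. Of the further striatal list 8 of 29 loci tested were higher in frontal cortex and 7 lower (median 0.04 log2, against 0.05 over all genes and 0.08 over the 9). The lowest difference in that list was -0.73 log2, at *Drd3*, the D3 dopamine receptor gene.

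The genes whose summits per locus followed the mean of the 9 most closely over the 11 frontal cortex libraries were *Kbtbd6* (Pearson's r = 0.867), *Abcc12* (0.865), *Dcdc5* (0.864), *Agbl1* (0.857), *Igsf11* (0.851), *Fthl17b* (0.847), *Gfra1* (0.843), *Sema3a* (0.839), *Lcn3* (0.838) and *Enah* (0.829). They are the highest of 18456 genes over 11 libraries that share their totals, so the values are a description without a p. None is in the lists used here. The mean itself was highest in replicate 1 at 6 h (0.82 SD) and next in replicates 1 and 3 at 24 h (0.57 and 0.31), while replicate 4 at 24 h (-0.20) lay among the other libraries.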

How the data were processed

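Per the labels' protocols, OMNI-ATAC-seq libraries were made from 20 to 30 mg of frozen tissue and sequenced with paired-end 50 bp reads. Per the submitters' processing notes, the tools were MACS2 2.2.7.1, Bowtie2 2.4.4, Trim Galore 0.6.7 and FastQC 0.11.9, on GRCm38 (mm10). No source used here states whether read ends were moved to the cut site. The authors deposited peaks per library, with a score and fold ratio per peak beside its −log10 q and −log10 p, used here to describe, rank or filter peaks within a list. The lowest deposited −log10 p was 2.00, so weak peaks are included. Peak lists carry no read depth, so depth is unknown and no interval that needs it is given. The authors' deposited csaw tables give a region, a direction and a number read as -10 times the log10 of the FDR (highest 0.05), with no fold change.

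The members and lists were chosen with earlier results of these data known. Windows reaching 250 bp to either side were placed greedily on summits and counted as present where a peak overlapped at least 50% of the shorter. Loci were tested with limma on log2(summits per 100000 + 0.5) for genes with a mean of 2 or more summits, and sites with Fisher's exact test, both adjusted over the whole table by Benjamini-Hochberg at 0.05. Both were tested on simulated data. The tissues are paired by animal, from the animal named in the labels, and deviations of same-animal libraries correlated by -0.03 to 0.34. Libraries of a group come from separate animals. All 9 members are named, with sites within 1 kb of a start, at an authors' region, or with a peak in 3 or 4 of the 4 choosing libraries and 0 or 1 of the other 7, of which a selection is printed. Promoter sequences are from RefSeq (GRCm38.p6). limma 3.58.1 in R 4.3.3 and Python 3.11.15 with scipy 1.17.1 were used, with alternatives for pseudocount, filter, flank, peak strength, scaling and left-out animals.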

Additional observations from a re-analysis of the deposited data

Results flagged for a closer look

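For summits per locus at 6 h, every LPS library lay above the saline mean in frontal cortex and below it in hippocampus at *Adora2a* and *Ppp1r1b*. The mean difference of LPS from saline was 1.10 summits per 100000 in frontal cortex and -1.35 in hippocampus at *Adora2a*, which differ by 2.46. At *Ppp1r1b* it was 0.84 in frontal cortex and -0.88 in hippocampus, which differ by 1.73. The difference between tissues was not tested, and neither locus passed the hippocampus test at 6 h (limma adjusted p = 0.993 for both). Of the 27 combinations of 9 genes and 3 times compared, these were the 2 with opposite signs in every library. The share of all genes with this form was not counted, so nothing is read from it. Frontal cortex replicate 1 at 6 h is also one of the libraries that chose the genes. At *Ppp1r1b* LPS and saline overlapped, with 17.11 to 19.30 against 17.59 and 21.09 in hippocampus. In frontal cortex it was 20.53 to 22.20 against 20.10 and 20.54. At *Adora2a* they did not overlap in either tissue. No group held 4 or more libraries, so none was searched for a library far from the others.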

How the results depend on the processing

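Peak lists limit what can be seen: depth is unknown, and a site without a peak may lie just under the caller's threshold. With the 50000 strongest peaks of each library, 1 in place of 27 sites had the form of the 4 libraries, and 23 with −log10 q of 5 or more, so the sites rest on peaks of middle and low rank. With a flank of 10 kb it was 17. Sites called towards frontal cortex and hippocampus at the 9 loci were 19 and 22 with the 50000 strongest peaks (16.0 and 18.5%, against 18.5 and 18.4% of all). They were 27 and 37 without the 4 animals (6.73 and 9.23%, against 6.82 and 13.1%), which leaves the libraries on the other side of the choice. With the animal as the replicate block they were 43 and 44 (8.55 and 8.75%, against 8.14 and 12.8%).

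With the animal as the replicate block, 3 of the 9 loci remained higher in frontal cortex (6497 genes higher and 3864 lower), and no call of a member changed. Without scaling, 1898 genes were higher in place of 6254, and 0 members. Without the 4 animals 1 member was higher and 1 lower, against 5764 and 3026 of 19447 genes. Lower members numbered 0 in the main fit and 1 with a flank of 10 kb, where 2559 of 17280 genes were lower. There were 2 with −log10 q of 5 or more, where 3734 of 19080 genes were lower. With the 50000 strongest peaks there were 3, where 3333 of 17061 genes were lower, and *Adora2a* and *Penk* were not tested. Nothing is read from these counts. Leaving out 1 animal at a time gave 5659 to 6284 genes higher, 3544 to 3709 lower, 2 to 4 members higher and 0 lower. *Ppp1r1b* was no longer past the threshold without LPS replicate 3 at 6 h (0.11), replicate 3 at 12 h (0.10) or replicate 4 at 12 h (0.11), nor with the 50000 strongest peaks (0.17), and *Rarb* was not with distinct intervals counted once (0.07). *Pde10a* was past it without replicate 4 at 6 h (0.08) and with distinct intervals counted once (0.12), and *Pdyn* with the 50000 strongest peaks (0.46). Direction turned, with the turned value past the threshold, for *Drd1* with −log10 q of 5 or more (-0.30) and the 50000 strongest peaks (-0.20), for *Pdyn* with a flank of 10 kb (-0.23) and for *Adcy5* with the 50000 strongest peaks (-0.97); the cause was not tested. It also turned, short of the threshold, for *Adora2a* (0.24) and *Penk* (0.19) with a flank of 10 kb and for *Pde10a* (-0.12) with the 50000 strongest peaks, for *Adora2a* (0.0013) with −log10 q of 5 or more, and without scaling for *Drd1* (-0.0039), *Pdyn* (-0.02) and *Pde10a* (-0.04).

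In hippocampus the 50000 strongest peaks gave 6, 10 and 13 changed genes at 6, 12 and 24 h, and no filter 3 at 12 h. Leaving out 1 library gave 0 to 1, 0 to 15 and 0 to 8, the highest at 12 h without saline replicate 2. No member was among the calls in any of these alternatives.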
